A study of Mus musculus with 12 samples.

Results

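Zinc finger proteins of the C2H2 class are the largest group of DNA-binding proteins in mammals, and many mouse genes for them carry only a working name, Zfp with a number. A finger is a short repeat in which a pair of cysteines and a pair of histidines hold a zinc ion, and a row of fingers reads a stretch of DNA. Many of these proteins also carry a KRAB box, which recruits the co-repressor Trim28 (KAP1) and, through it, heterochromatin enzymes to endogenous retroviruses and other targets. Others bind gene promoters, sit in chromatin complexes, or work on RNA, ribosomes and ubiquitin. The genes described here are the protein-coding genes named Zfp and a number, without Zfp36 and Zfp395, chosen by a mean raw count of at least 100 over the 12 libraries. There were 193 of them among 363 such genes of any level and 54532 genes in the table.

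The RNA came from resident peritoneal macrophages of C57BL/6 mice, the phagocytes that live in the unstimulated abdominal cavity, kept for 24 h in DMEM with MOPS or HEPES as the buffer. Cells then had no further agent (untreated) or 10 ng/ml of lipopolysaccharide (LPS), a bacterial cell wall component that activates Toll-like receptor 4, for 2 h. There were 4 groups of 3 libraries: HEPES, MOPS, and each of these with LPS. The series text names pH 6.8 and 7.4 in the order in which it names the 2 buffers, so MOPS is read here as the acidic medium, and pH and buffer cannot be told apart. Nothing in the labels says whether the 3 libraries of a group came from separate mice or cultures, so p-values measure only the spread between these libraries.

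The libraries held 20114613 to 24734853 counted reads. All 8 macrophage markers, Adgre1, Csf1r, Timd4 and Icam2 among them, were detected, with a summed level of 16500 to 19500 CPM (counts scaled to library size) in the 6 MOPS libraries and 25800 to 28900 in the 6 HEPES libraries. Most of that gap was Lyz2, lysozyme, at 12500 to 14700 CPM in MOPS and 21500 to 24500 in HEPES, with or without LPS. The other 7 markers summed to 3960 to 4090 in MOPS and 4270 to 4410 in HEPES without LPS, and to 4690 to 4870 and 4460 to 4670 with it. Single markers within that sum differed more. Timd4 averaged 17.2 CPM in MOPS and 52.4 in HEPES without LPS, and 28.2 and 101 with it. Tlr4 averaged 33.0 and 59.5 without LPS, and 27.5 and 62.0 with it. Of the 8 markers, edgeR called 5 lower in MOPS and 1 higher without LPS, and 4 lower and 1 higher with it. The 7 T and NK cell markers found stayed under 1 CPM in every library. B cell markers were present, summing to 91.0 to 164 CPM in HEPES, 208 to 217 in MOPS, 26.6 to 32.7 in HEPES with LPS and 124 to 137 in MOPS with LPS. Granulocyte and mast cell markers summed to 23.6 to 40.3 CPM over the 12 libraries, and mesothelial and stromal markers to 7.12 to 11.6.

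The choice used only the mean count, so the level itself is no finding. Just inside it were Zfp169, Zfp825 and Zfp27, with mean counts of 101.75, 105.42 and 106, and just outside it Zfp455, Zfp707 and Zfp930, with 99.25, 98.83 and 96.92. All 193 genes passed the low-count filter and were tested. A further 109 Zfp genes below the level also had enough counts to be tested.

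Coding sequences of the GENCODE vM21 annotation (GRCm38/mm10) placed 96 of the 193 among KRAB-type genes, by a match at 15 or more of 21 conserved positions of the KRAB A box. The other 97 genes scored below that, and 96 of those had 11 or fewer matches. The median gene encoded 10 fingers and the longest row, in Zfp142, had 37. No classical finger was found in Zfp330, Zfp503, Zfp703 and Zfp839. A SCAN box, a dimerization domain, was found in 7, Zfp263 and Zfp445 among them. Chromosome 7 held 47 of the genes, chromosome 17 held 24 and chromosome 8 held 14.

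One finger unit of the coding strand is shown for 6 genes, to make visible how alike and how unlike the repeats are. Each is the first unit of 63 bases with the classical spacing, and the capitals mark the codons of the 2 cysteines and 2 histidines. Zfp263 (chromosome 16, 3744093 to 3750790), Zfp658 (chromosome 7, 43562256 to 43575461) and Zfp719 (chromosome 7, 43579610 to 43593235) were among the 6 largest LPS increases in each medium, and Zfp810 (chromosome 9, 22276748 to 22307648) was the largest decrease. Zfp991 (chromosome 4, 147132038 to 147180579) and Zfp993 (chromosome 4, 146610961 to 146658160) stand for near-identical copies.
Zfp263: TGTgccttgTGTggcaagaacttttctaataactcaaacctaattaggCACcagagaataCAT
Zfp658: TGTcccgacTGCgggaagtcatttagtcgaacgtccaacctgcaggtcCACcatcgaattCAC
Zfp719: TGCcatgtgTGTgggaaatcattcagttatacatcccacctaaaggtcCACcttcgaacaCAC
Zfp810: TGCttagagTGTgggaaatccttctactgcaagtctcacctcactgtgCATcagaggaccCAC
Zfp991: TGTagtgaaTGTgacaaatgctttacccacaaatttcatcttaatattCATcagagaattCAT
Zfp993: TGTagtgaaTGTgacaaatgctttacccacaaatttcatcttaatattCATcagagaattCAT
The neighbours Zfp658 and Zfp719 shared 45 of 63 bases in these units, Zfp263 shared 35 with each of them, and Zfp991 and Zfp993 shared all 63.

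Such copies limit what reads can tell apart. In 43 of the 193 genes at least 5% of the 100-base words of the main transcript also occurred in transcripts of another gene, led by Zfp991 (73.8%) and Zfp993 (71.9%), whose counts are therefore uncertain. In 15 genes exons overlapped those of another counted gene, 14 of them on the opposite strand, and the strand setting of the counting is not given in the sources used here.

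Per kilobase of gene length, the median level of the 193 was 3.05 CPM per kilobase, against 7.92 for the 9344 protein-coding genes with a mean count of at least 100. Here and below, genes at the same mean count share only this minimum, and levels were not matched. The median mean count was 871 for the 9344 and 353 for the 193. Per kilobase, KRAB-type genes were lower, at a median of 2.33, and the others stood at 4.22. The highest level per length was that of Zfp703, a co-repressor partner of the NET family, at 25.7 over the 12 libraries. Zfp263 followed at 24.6, Zfp706 at 19.9, Zfp598, the ubiquitin ligase that marks collided ribosomes, at 19.6, and Zfp131, a BTB domain factor, at 17.8. Zfp869 at 15.97, Zfp207, a spindle and kinetochore protein, at 14.4 and Zfp445, a KRAB protein that guards genomic imprints, at 14.1 completed the first 8. Replicates were close: the median coefficient of variation over the 193 genes was 4.9% in HEPES, 4.93% in MOPS, 6.42% in HEPES with LPS and 6.9% in MOPS with LPS.

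**Figure D1:**
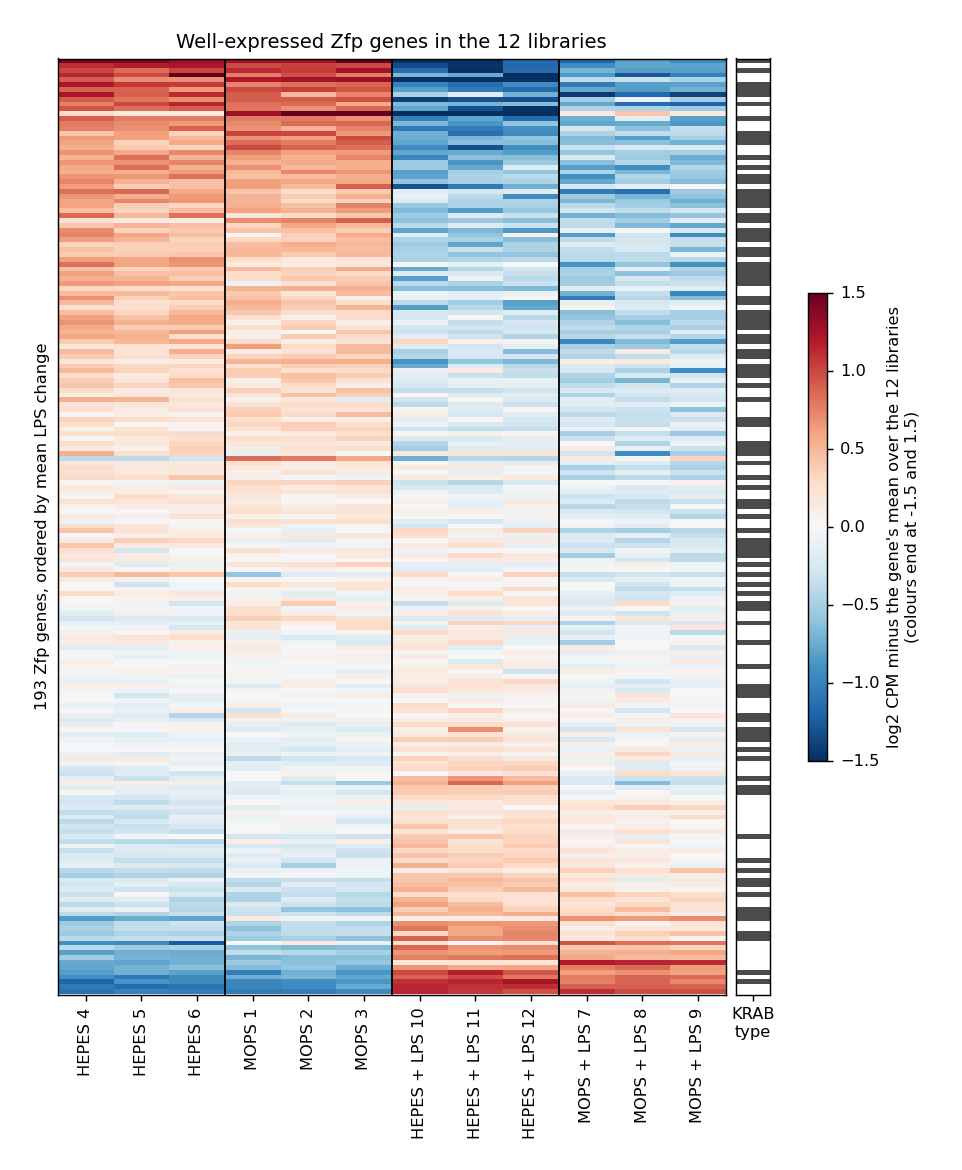
Each row is one of the 193 Zfp genes and each column one library, with colour giving log2 CPM minus the gene's own mean over the 12 libraries. Rows run from the strongest fall to the strongest rise with LPS, and dark marks at the right show the 96 KRAB-type genes, of which 65 fell in MOPS.

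LPS lowered more of these genes than it raised. In MOPS 114 of the 193 fell and 40 rose (edgeR quasi-likelihood test, Benjamini-Hochberg adjusted p under 0.05 over all 14506 genes tested, no minimum fold). Of all genes tested, 69% were called in this comparison, 34.9% lower and 34.1% higher, and among protein-coding genes at the same mean count 37.6% were lower and 41.6% higher. In HEPES 90 fell and 66 rose, where 76.9% of all genes tested were called, 41.2% lower and 35.6% higher, and 41.7% and 42.9% at the same mean count. The median log2 change of the 193 was -0.33 in MOPS and -0.14 in HEPES, against -0.03 and -0.08 for all genes tested. For protein-coding genes at the same mean count it was 0.02 and 0.003. So in MOPS the median lay 0.30 below that of all genes, and in HEPES 0.06 below. At least 2-fold falls were called for 33 genes in MOPS and 35 in HEPES, and at least 2-fold rises for 9 and 14. Of all genes tested, 11.8% and 19.7% had such falls and 10.8% and 13.9% such rises.

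These directions rest on the scaling between untreated and LPS libraries. When libraries were scaled by total counts alone, the median of all genes moved to -0.55 in MOPS and -0.67 in HEPES, the split of the 193 became 167 lower and 15 higher in MOPS and 147 lower and 20 higher in HEPES, and 14 and 21 of the genes called higher became lower. Of all 14506 genes tested, 9506 were then lower and 2084 higher in MOPS, and 9666 and 2502 in HEPES. Of the 9344 protein-coding genes at the same mean count, 6859 were lower and 1463 higher in MOPS, and 6639 and 1829 in HEPES. The distance of the 193 from the median of all genes stayed at -0.30 and -0.06. Scaling shifts all genes by nearly the same amount, so this distance could hardly change and is no check on the directions.

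The genes that fell and rose were largely shared by the media, which have no library in common for this comparison. In both media 88 genes fell, where 30.2% of all genes tested did so, and in both 40 rose, where 29.2% did. At the same mean count the shares were 32.4% and 36.3%. Across the 193 genes the LPS changes in MOPS and HEPES correlated with Pearson's r = 0.935 and Spearman's rho = 0.936, given as a description over genes, which are not independent replicates. Only 5 genes, Zfp9, Zfp180, Zfp236, Zfp639 and Zfp954, were called lower in MOPS and higher in HEPES, and none the reverse; 1.93% of all genes tested and 2.81% at the same mean count had opposite calls. None of the 5 kept both calls under scaling by total counts, which gave this pattern to Zfp217 and Zfp330 instead.

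**Figure D2:**
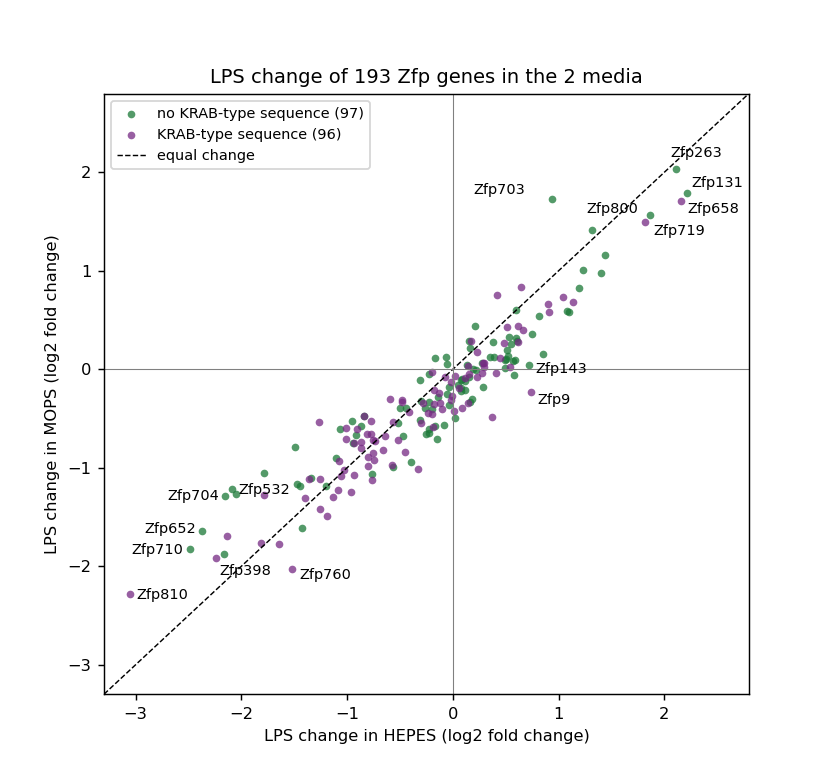
Each point is one Zfp gene, placed by its log2 LPS change in HEPES (horizontal) and in MOPS (vertical), purple for the 96 KRAB-type genes and green for the 97 others, with the dashed line marking equal change. Points follow the line over the range from -3.06 to 2.21, 130 of the 193 lie below the line, and Zfp703 stands above it.

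Zfp263, a SCAN domain factor, had the largest LPS rise in MOPS. Its level was 40.3, 43.4 and 42.8 CPM in HEPES and 42.0, 42.8 and 45.4 in MOPS, and 193, 184 and 170.1 in HEPES with LPS and 189, 173 and 171 in MOPS with LPS. Treated and untreated libraries did not overlap in either medium, while the media did. The change was 4.10-fold in MOPS (log2 2.03 ± 0.05 SE, n = 3 per group, edgeR adjusted p = 4.2e-25) and 4.32-fold in HEPES (edgeR adjusted p = 9.6e-26).

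Zfp131 rose in every treated library and more in HEPES. It stood at 31.3, 29.2 and 30.5 CPM in HEPES and 32.8, 33.9 and 38.6 in MOPS, and LPS brought it to 144, 138 and 141 in HEPES and 122, 121 and 121 in MOPS. The rise was 4.64-fold in HEPES and 3.46-fold in MOPS, and the difference between these changes was -0.42 ± 0.07 SE on the log2 scale (edgeR adjusted p = 1.6e-05).

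The KRAB-type genes Zfp658 and Zfp719 lie next to each other on chromosome 7, 4149 bases apart, and rose together. Zfp658 went from 8.54, 10.5 and 10.1 CPM in HEPES and 9.88, 10.2 and 10.6 in MOPS to 41.5, 42.9 and 45.7 in HEPES with LPS and 32.6, 35.7 and 32.0 in MOPS with LPS. Zfp719 went from 9.99, 10.8 and 10.2 in HEPES and 8.66, 10.8 and 9.70 in MOPS to 35.4, 40.0 and 34.3 in HEPES with LPS and 27.2, 28.3 and 26.9 in MOPS with LPS. All treated libraries of both genes lay above all untreated ones, and those in HEPES above those in MOPS. The fold changes in HEPES were 4.46 for Zfp658 (edgeR adjusted p = 6.2e-22) and 3.53 for Zfp719 (edgeR adjusted p = 1.6e-19). No 100-base word of either transcript occurred in another gene.

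Zfp800 was a further strong riser, from 24.6 to 27.4 CPM in HEPES to 89.8 to 102 with LPS, and from 30.3 to 32.3 in MOPS to 89.0 to 95.1. Zfp451, a SUMO ligase, rose 2.71-fold in HEPES and 2.23-fold in MOPS, and Zfp516, a co-factor of CtBP complexes, 2.49-fold and 2.66-fold. All 3 genes rose in both media under each scaling tried.

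Zfp810, of KRAB type, had the largest falls. It was at 9.08, 9.02 and 8.30 CPM in HEPES and 8.14, 8.02 and 9.33 in MOPS, and at 0.708, 0.958 and 1.502 in HEPES with LPS and 1.49, 1.94 and 1.76 in MOPS with LPS. Treated and untreated libraries did not overlap. The change was -3.06 ± 0.18 SE on the log2 scale in HEPES (edgeR adjusted p = 5.0e-16) and -2.29 ± 0.16 in MOPS (edgeR adjusted p = 8.4e-14). The difference between these changes, 0.77, was called (edgeR adjusted p = 0.024), but not without MOPS with LPS replicate 8 (0.63, edgeR adjusted p = 0.10), HEPES with LPS replicate 10 (0.51, edgeR adjusted p = 0.16) or HEPES with LPS replicate 11 (0.66, edgeR adjusted p = 0.088).

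Zfp710 fell from a much higher level. Its 3 HEPES libraries held 87.9, 92.5 and 94.9 CPM and those with LPS 16.2, 14.7 and 18.1, and in MOPS 80.7, 83.3 and 81.2 became 21.5, 23.8 and 23.6. It was the only gene called lower in MOPS at rest (edgeR adjusted p = 0.0053) and higher in MOPS under LPS (edgeR adjusted p = 5.8e-07). The KRAB-type genes Zfp398 and Zfp760 fell by 2.24 and 1.52 in HEPES and by 1.92 and 2.03 in MOPS on the log2 scale.

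Promoters are shown for Zfp263, Zfp719 and Zfp810, which were called in the same direction with LPS in both media. RefSeq promoter windows (GRCm38.p6) were matched to 163 of the 193 genes, and the 250 bases before the start site are printed on the gene's strand, with capitals marking each GC box (GGGCGG on either strand) and each NF-kappaB-type match (GGG, a pair of any bases, TT, any base and CC, on either strand). The windows are chr16:3743849-3744098 on the plus strand, chr7:43579336-43579585 on the plus strand and chr9:22307639-22307888 on the minus strand.
Zfp263: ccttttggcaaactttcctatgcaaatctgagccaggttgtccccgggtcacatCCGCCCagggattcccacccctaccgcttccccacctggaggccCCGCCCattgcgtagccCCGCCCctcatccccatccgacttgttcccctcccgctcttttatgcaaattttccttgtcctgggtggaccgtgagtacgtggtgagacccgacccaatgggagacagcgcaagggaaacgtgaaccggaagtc
Zfp719: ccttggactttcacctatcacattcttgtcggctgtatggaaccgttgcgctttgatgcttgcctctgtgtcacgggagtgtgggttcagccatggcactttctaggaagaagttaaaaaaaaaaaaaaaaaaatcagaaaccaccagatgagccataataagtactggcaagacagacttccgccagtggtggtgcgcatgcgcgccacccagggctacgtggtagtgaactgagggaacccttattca
Zfp810: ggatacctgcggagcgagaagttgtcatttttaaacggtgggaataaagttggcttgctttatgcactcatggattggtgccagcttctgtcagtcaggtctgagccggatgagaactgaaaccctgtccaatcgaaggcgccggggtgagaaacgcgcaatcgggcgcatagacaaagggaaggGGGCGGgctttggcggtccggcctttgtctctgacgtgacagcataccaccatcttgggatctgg
The Zfp263 window held 3 GC boxes, that of Zfp810 held 1 and that of Zfp719 none, and no NF-kappaB-type match was found in the 3.

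Over windows of 300 bases, a GC box occurred in 53.4% of the 163 matched promoters, in 67.7% of those of protein-coding genes at the same mean count and in 42.8% of all 20484. The NF-kappaB-type match occurred in 4.91%, 5.5% and 4.86%. The median number of CpG pairs per window was 16, being 12 in KRAB-type genes and 20 in the others, against 22 at the same mean count. Of 10 motifs searched on both strands, the others were CCGGAAG (in 23.3% of the matched promoters and 21% at the same mean count), TGACGT (16.6% and 13.2%), CCAAT (47.2% and 38.5%), TGANTCA (3.68% and 4.71%), the NF-kappaB-type match with T as its last free base (1.84% and 1.71%), and the motifs of NRF1 (3.68% and 2.43%), YY1 (1.84% and 2.03%) and a palindromic CGCG element (0.613% and 1.26%). These are matches of letters, not binding sites.

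Of the 96 KRAB-type genes 65 fell and 15 rose with LPS in MOPS, and of the 97 others 49 fell and 25 rose. In HEPES the counts were 52 lower and 26 higher against 38 lower and 40 higher. With total counts they were 85 lower and 6 higher against 82 and 9 in MOPS, and 78 lower and 6 higher against 69 and 14 in HEPES. Of 9344 protein-coding genes at the same mean count, total counts gave 6859 lower and 1463 higher in MOPS, and 6639 and 1829 in HEPES. The median log2 change of the KRAB-type genes lay 0.41 below that of all genes in MOPS and 0.23 below in HEPES. That of the others lay 0.14 below and 0.13 above. The medians themselves were -0.45 and -0.32 for the KRAB-type genes and -0.18 and 0.05 for the others. Protein-coding genes at the same mean count had medians of 0.02 and 0.003. The KRAB-type genes had a median mean count of 223 and the others 508. Among genes at or above the median count of 353, 13 of 31 KRAB-type genes (41.9%) and 32 of 66 others (48.5%) fell in MOPS, and 10 (32.3%) and 23 (34.8%) in HEPES. Below it, 52 of 65 KRAB-type genes (80%) and 17 of 31 others (54.8%) fell in MOPS, and 42 (64.6%) and 15 (48.4%) in HEPES. The part of the level in this difference was not tested.

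**Figure D3:**
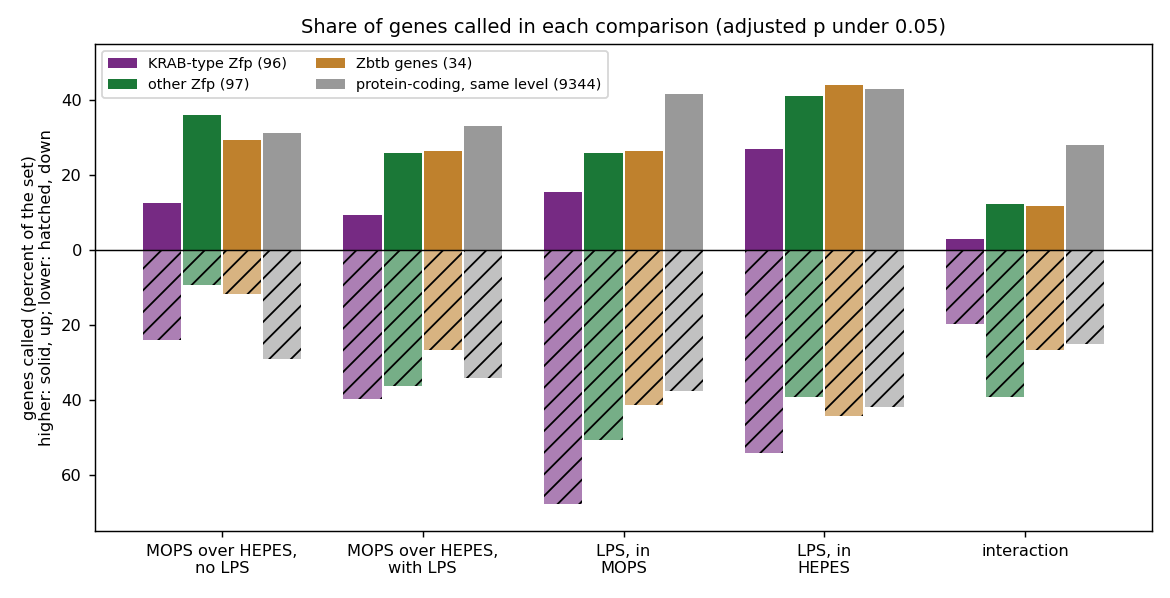
Bars give the percent of genes called higher (solid, upward) or lower (hatched, downward) in each comparison. The sets are KRAB-type Zfp genes, other Zfp genes, the 34 Zbtb genes and the 9344 protein-coding genes, all with a mean count of at least 100. KRAB-type genes have the longest downward bars under LPS, and in the interaction all 3 zinc finger sets have shorter upward bars than the protein-coding genes.

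Genes of the same fold under other names were set beside them. Of 34 Zbtb genes at the same mean count, 14 fell and 9 rose with LPS in MOPS and 15 fell and 15 rose in HEPES. Of 76 other genes with C2H2 fingers, 31 fell and 30 rose in MOPS and 28 fell and 37 rose in HEPES. Of all protein-coding genes at that mean count, 37.6% fell and 41.6% rose in MOPS, and 41.7% and 42.9% in HEPES. With total counts the Zbtb genes gave 27 lower and 3 higher in MOPS and 25 and 4 in HEPES, and the other genes 47 lower and 20 higher and 48 and 20. The 9344 protein-coding genes then gave 6859 lower and 1463 higher in MOPS, and 6639 and 1829 in HEPES.

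Fewer genes were called between the media than with LPS. Without LPS, 47 of the 193 were higher in MOPS than in HEPES and 32 were lower, where 49.7% of all genes tested were called, 24.3% higher and 25.4% lower, and 31.2% and 28.9% at the same mean count. Only 3 genes differed at least 2-fold, all higher in MOPS, where 3.36% of all genes tested were that much higher and 4.76% lower. Zfp532, part of the Z3 chromatin complex, was at 14.4, 17.4 and 17.6 CPM in MOPS and 7.39, 6.74 and 6.67 in HEPES, a 2.37-fold difference (log2 1.24 ± 0.10 SE, edgeR adjusted p = 1.4e-11). Zfp691 was at 9.84, 9.49 and 8.23 against 4.22, 4.19 and 4.54. Zfp503, a relative of Zfp703, was at 8.07, 8.86 and 7.58 against 4.25, 4.16 and 3.39. In each of these 3 genes the groups did not overlap.

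The lower side was made of smaller steps. Zfp111, of KRAB type, was at 3.24, 4.23 and 4.36 CPM in MOPS and 6.25, 6.78 and 6.42 in HEPES (log2 -0.71 ± 0.13 SE, edgeR adjusted p = 3.9e-05), and Zfp709 at 12.2, 12.2 and 12.5 against 19.8, 16.8 and 17.7. Of the KRAB-type genes 12 were higher in MOPS and 23 lower, and of the others 35 were higher and 9 lower. DESeq2 gave 12 higher and 11 lower of the KRAB-type genes, and 33 higher and 4 lower of the others. At or above the median count the counts were 7 higher and 7 lower of 31 KRAB-type genes, and 30 higher and 5 lower of 66 others. DESeq2 called 15 of the 193 lower, all of them among the 32, and 45 higher. Of all 14506 genes tested it called 2963 lower and 3429 higher.

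Under LPS the balance between the media turned to the lower side. In MOPS with LPS 73 of the 193 were lower than in HEPES with LPS and 34 higher, where 53.8% of all genes tested were called, 26.9% in each direction, and 34.1% lower and 33% higher at the same mean count. Scaling by total counts, which moved the median of all genes to 0.10, gave 51 lower and 40 higher. Of all 14506 genes tested it gave 2942 lower and 4885 higher, and of the 9344 at the same mean count 2365 and 3897. The largest differences downward were those of Zfp27 (log2 -1.08 ± 0.15 SE), Zfp28 (-0.97 ± 0.13) and Zfp760 (-0.88 ± 0.21). Zfp28 was at 3.50, 4.30 and 3.80 CPM in MOPS with LPS and 8.55, 7.18 and 7.01 in HEPES with LPS, and Zfp27 at 3.80, 2.84 and 3.47 against 6.37, 8.09 and 6.79. Zfp27 was also lower in MOPS at rest (-0.44), a call lost without MOPS replicate 3 (-0.35, edgeR adjusted p = 0.072).

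The 2 comparisons of the media use different libraries. Both called 16 genes higher in MOPS and 20 lower, where 13.8% and 12.8% of all genes tested were, and 16 of those 20 were of KRAB type. A further 9 genes, Zfp131, Zfp143, Zfp146, Zfp276, Zfp330, Zfp335, Zfp384, Zfp592 and Zfp954, were higher in MOPS at rest and lower in MOPS under LPS, as were 3.65% of all genes tested. With total counts Zfp143, Zfp146 and Zfp276 lost the call under LPS and the other 6 kept both. The call of Zfp335 at rest (0.19) was lost without MOPS replicate 1 (0.16, edgeR adjusted p = 0.097), HEPES replicate 4 (0.18, edgeR adjusted p = 0.060) or HEPES replicate 5 (0.16, edgeR adjusted p = 0.096). In Zfp335 23.3% of the exon bases overlap Pcif1 on the opposite strand.

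The interaction asks whether the LPS change itself differed between MOPS and HEPES. It was lower in MOPS for 57 of the 193 and higher for 15, where 39.4% of all genes tested were called, 17.6% lower and 21.9% higher, and 25.1% and 28.1% at the same mean count. Total counts gave 42 lower and 23 higher, with the median of all genes at 0.13. Of all 14506 genes tested, 1972 were then lower and 3891 higher. Of the 57, the fitted change was a rise in both media for 28, which was smaller in MOPS, a fall in both for 11 and of unlike sign for 18. Among all genes tested with a lower change in MOPS these shares were 74.1%, 8.56% and 17.4%, against 49.1%, 19.3% and 31.6% of the 57. Of the 15, 13 (86.7%) fell in both media, less so in MOPS, as did 66.8% of such genes among all tested. These signs depend on the scaling: with total counts 8 of 42 lower changes were rises in both media, 28 falls in both and 6 of unlike sign. These are 19%, 66.7% and 14.3% of the 42, where the shares among all genes tested were then 41.8%, 31% and 27.2%. The median of the 193 was -0.18, against 0.06 for all genes tested and 0.02 for protein-coding genes at the same mean count. It lay 0.24 below that of all genes under both scalings, a distance that scaling can hardly change.

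Zfp9, of KRAB type, had the largest interaction. It was at 10.7, 9.19 and 10.4 CPM in HEPES and 11.7, 10.3 and 11.8 in MOPS, and between 16 and 18.4 in HEPES with LPS and 10.1, 9.41 and 9.32 in MOPS with LPS. All 3 libraries of HEPES with LPS stood above the other 9. The libraries of MOPS with LPS lay below those of MOPS without LPS, where the fall was called, and overlapped those of HEPES without LPS. The interaction was -0.97 ± 0.13 SE on the log2 scale (edgeR adjusted p = 8.2e-07).

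**Figure D4:**
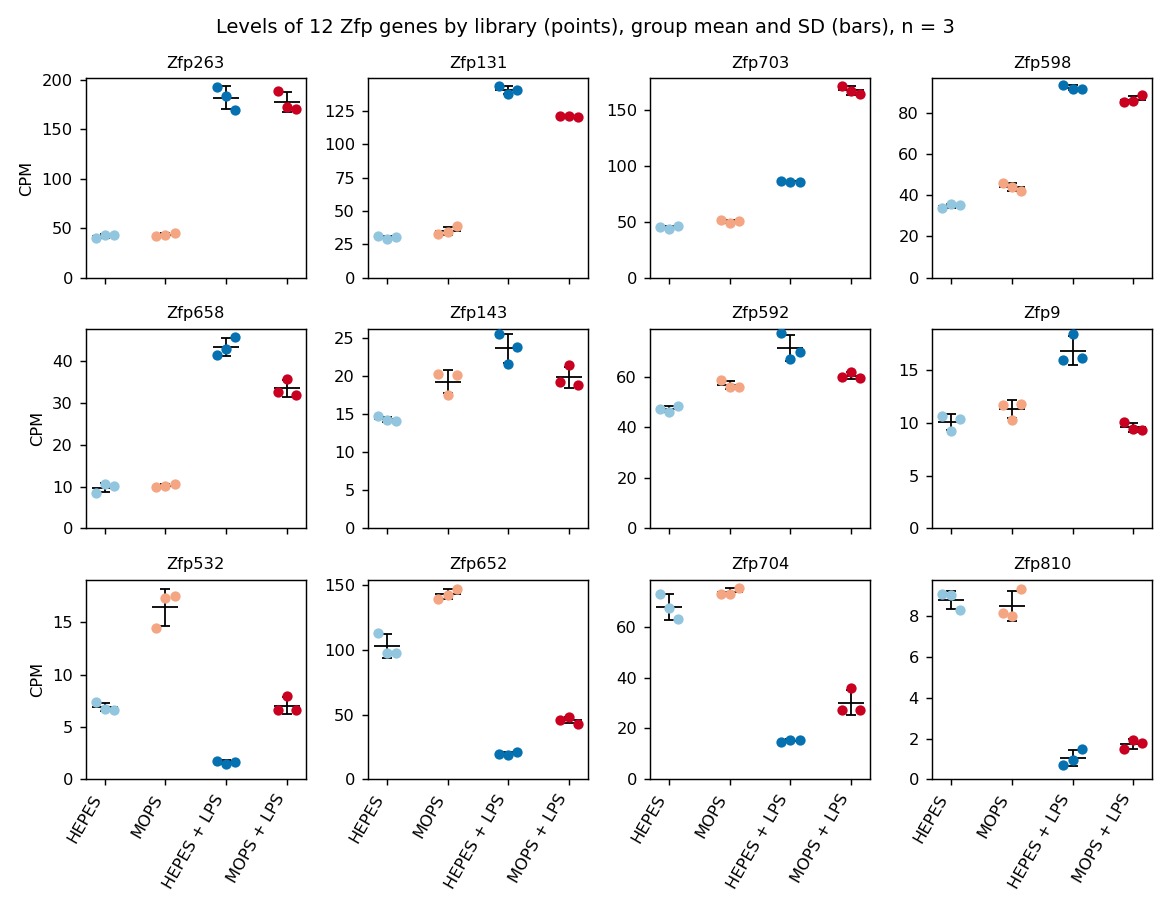
Points are CPM of 12 Zfp genes in each library of the 4 groups on axes that start at zero, with bars for the group mean and SD (n = 3). Zfp263, Zfp131, Zfp598 and Zfp658 are raised in all libraries with LPS, Zfp703 most in MOPS with LPS, and Zfp532, Zfp652 and Zfp704 are lowest in HEPES with LPS.

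Among 7 promoter-binding factors, 5 rose with LPS in HEPES and 2 fell, and 4 rose and 2 fell in MOPS, and with total counts 1 rose and 2 fell in HEPES and 1 rose and 5 fell in MOPS. Of protein-coding genes at the same mean count, 42.9% rose and 41.7% fell in HEPES, and 41.6% and 37.6% in MOPS, without that scaling. With it, 1829 of these 9344 genes rose and 6639 fell in HEPES, and 1463 rose and 6859 fell in MOPS. Zfp143, an activator bound at many housekeeping promoters, was at 14.7, 14.2 and 14.1 CPM in HEPES, 20.2, 17.5 and 20.04 in MOPS, 25.4, 21.6 and 23.8 in HEPES with LPS and 19.2, 21.4 and 18.8 in MOPS with LPS. It rose in HEPES by 0.72 ± 0.08 SE on the log2 scale (edgeR adjusted p = 1.4e-09), while in MOPS the groups overlapped (log2 0.05, edgeR adjusted p = 0.61). With total counts the values were 0.13 and -0.47. Zfp281, which binds GC-rich promoters, rose by 1.23 in HEPES and 1.01 in MOPS, and its relative Zfp148 fell by 0.52 and 0.54. Zfp410, known as a dedicated activator of Chd4, rose by 0.61 in HEPES and 0.29 in MOPS (log2; 0.02 and -0.22 with total counts). Chd4 itself went from 254 ± 3.72 to 488 ± 4.51 CPM in HEPES and from 298 ± 3.53 to 519 ± 20.9 in MOPS (SD, n = 3). Its log2 change was 0.94 and 0.80, and 0.36 and 0.29 with total counts. A link between the 2 genes was not tested.

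Among 14 chromatin co-factors, 7 were higher in MOPS than in HEPES at rest and none lower, where 31.2% and 28.9% of protein-coding genes at the same mean count were. Under LPS 6 were higher in MOPS and 4 lower, where 33% and 34.1% were, and the LPS change was called higher in MOPS for 5 and lower for 5, where 28.1% and 25.1% were. The NET family members Zfp703 and Zfp704 moved in opposite directions with LPS. Zfp703 was at 44.8, 43.8 and 45.9 CPM in HEPES and 51.6, 48.9 and 50.6 in MOPS, and rose to 86.6, 85.7 and 85.7 in HEPES and 172, 167 and 164 in MOPS. All 3 libraries of MOPS with LPS lay above all others, and the interaction was 0.79 ± 0.06 SE (edgeR adjusted p = 9.0e-12). Zfp704 fell from 72.9, 67.5 and 62.8 to 14.6, 15.6 and 15.5 in HEPES and from 72.8, 72.6 and 75.2 to 27.3, 35.9 and 27.1 in MOPS.

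The Z3 complex members did not move as one. Zfp532 fell with LPS to 1.796, 1.44 and 1.67 CPM in HEPES and 6.58, 7.94 and 6.61 in MOPS. Zfp592 was at 47.2, 46.2 and 48.5 in HEPES, 58.6, 55.7 and 55.9 in MOPS, 77.1, 67.1 and 69.6 in HEPES with LPS and between 59.4 and 61.8 in MOPS with LPS. Its LPS change was 0.59 ± 0.05 SE in HEPES (edgeR adjusted p = 4.7e-12) and 0.09 in MOPS (edgeR adjusted p = 0.11), and 0.01 and -0.42 with total counts. Zfp687 was called in none of the 5 comparisons, and its log2 LPS changes were 0.06 in MOPS and -0.06 in HEPES. Their partner Zmynd8 fell from 110.0 ± 3.46 to 55.1 ± 1.22 CPM in HEPES and from 126 ± 3.86 to 61.2 ± 1.64 in MOPS (SD, n = 3).

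Zfp652, a partner of the CBFA2T3 co-repressor, was at 114, 97.8 and 97.4 CPM in HEPES and 139, 143 and 148 in MOPS, and at 19.6, 19.2 and 21.02 in HEPES with LPS and 46.2, 48.1 and 43.0 in MOPS with LPS. No groups overlapped, and MOPS was above HEPES in both states. A set of 10 genes was called higher in MOPS in both states and lower with LPS in both media: Zfp91, Zfp106, Zfp219, Zfp512, Zfp532, Zfp608, Zfp629, Zfp652, Zfp688 and Zfp740. The pattern was shown by 5.85% of all genes tested and 7.71% at the same mean count. Total counts kept all 10 and added 7 others: Zfp148, Zfp398, Zfp445, Zfp691, Zfp746, Zfp871 and Zfp958. In Zfp740 the fall in HEPES (-0.14) was not called in 4 of the 12 fits with a library left out, with -0.06 (edgeR adjusted p = 0.34) at the least without HEPES with LPS replicate 11, nor with RLE scaling (-0.10, edgeR adjusted p = 0.068). Its difference between the media under LPS (0.14) was not called in 5 of those fits, with 0.06 (edgeR adjusted p = 0.37) without the same library. The B cell markers that were called had calls in the same directions: of 10, 6 were higher in MOPS at rest, 10 under LPS, 8 fell with LPS in MOPS and 10 in HEPES. Their part in these 10 genes was not tested, and in bulk RNA fewer cells of a type and less RNA per cell cannot be told apart. The counts of Zfp532 share 35.5% of their 100-base words with another annotated gene, and 18.9% of Zfp652's exon bases overlap Abi3 on the opposite strand.

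Zfp217, a CoREST and CtBP partner, rose by 0.75 in HEPES and 0.36 in MOPS on the log2 scale, the latter turning to -0.15 with total counts. Zfp638, which acts with the HUSH silencing complex, stayed within 68.0 to 82.2 CPM in the 12 libraries. Its LPS rise in HEPES was 0.13, a call lost without HEPES replicate 6 (0.10, edgeR adjusted p = 0.11), and -0.45 with total counts.

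Among 10 genes of RNA, translation and ubiquitin pathways, 6 rose with LPS in HEPES and 4 fell, and 5 rose and 4 fell in MOPS, and with total counts 3 rose and 5 fell in HEPES and 2 rose and 7 fell in MOPS. At the same mean count, 42.9% of protein-coding genes rose and 41.7% fell in HEPES, and 41.6% and 37.6% in MOPS, without that scaling. With it, 1829 of these 9344 genes rose and 6639 fell in HEPES, and 1463 rose and 6859 fell in MOPS. Zfp598 was at 33.6, 35.7 and 35.1 CPM in HEPES and 45.7, 44.1 and 41.9 in MOPS, and rose to 93.6, 91.3 and 91.7 in HEPES and 85.1, 85.6 and 88.4 in MOPS. The rise was 2.65-fold in HEPES (edgeR adjusted p = 2.1e-22) and 1.96-fold in MOPS (edgeR adjusted p = 3.6e-18), and MOPS lay above HEPES at rest with no overlap. Zfp346, a double-stranded RNA binder, rose by 1.09 in HEPES and 0.58 in MOPS (log2; 0.51 and 0.07 with total counts). Zfp91, a ubiquitin ligase, fell by 0.91 and 0.67, and Zfp106, an RNA-binding protein that shares 24.2% of its 100-base words with another annotated gene, by 0.30 and 0.33. Of 18 other genes of ribosome collision and rescue, 12 rose with LPS in HEPES and 5 fell, and 11 rose and 5 fell in MOPS. The shares and counts at the same mean count, for both scalings, are those given above for the 10 genes. With total counts 4 rose and 11 fell in HEPES, and 1 rose and 15 fell in MOPS. Usp10, which removes ubiquitin from ribosomal proteins, rose by 1.07 and 0.36 (0.48 and -0.16 with total counts).

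Of the KRAB proteins with a known target, 3 passed the level. Zfp445 was at 100.1, 91.7 and 95.9 CPM in HEPES and 118, 122 and 131 in MOPS, and at 95.5, 96.3 and 94.3 in HEPES with LPS and 99.5, 109 and 98.1 in MOPS with LPS. It was higher in MOPS at rest (log2 0.37 ± 0.05 SE, edgeR adjusted p = 9.9e-08), and under LPS the difference was 0.10 (edgeR adjusted p = 0.080). Without MOPS with LPS replicate 9 the latter was 0.13 and called (edgeR adjusted p = 0.044), and with total counts 0.20 (edgeR adjusted p = 0.0017). Zfp568, which silences a placental promoter of Igf2, rose from 15.5, 15.9 and 16.2 to 37.7, 33.3 and 33.6 in HEPES and from 14.2, 14.6 and 13.5 to 22.4, 24.4 and 21.1 in MOPS. Zfp809, which silences murine leukaemia proviruses, fell by 0.28 in HEPES and 0.34 in MOPS, the former not called without HEPES with LPS replicate 10 (-0.20, edgeR adjusted p = 0.060).

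The silencing machinery that KRAB proteins call on moved in both directions. Of 20 genes, 11 fell with LPS in HEPES and 7 rose, and 11 fell and 5 rose in MOPS, and with total counts 15 fell and 3 rose and 17 fell and 1 rose. Without that scaling, 41.7% of protein-coding genes at the same mean count fell and 42.9% rose in HEPES, and 37.6% and 41.6% in MOPS. With it, 6639 of these 9344 genes fell and 1829 rose in HEPES, and 6859 fell and 1463 rose in MOPS. Trim28 was at 84.5 ± 0.796 CPM in HEPES, 101 ± 7.80 in MOPS, 70.4 ± 3.55 in HEPES with LPS and 96.5 ± 1.09 in MOPS with LPS (SD, n = 3), a fall of 0.26 with LPS in HEPES (edgeR adjusted p = 2.1e-05) and a value of -0.07 in MOPS (edgeR adjusted p = 0.19; -0.85 and -0.59 with total counts). Setdb1, its histone methyltransferase, fell by 0.65 in HEPES and 0.78 in MOPS, and Atf7ip, the partner of Setdb1, by 1.95 and 1.90.

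Neighbouring genes did not always move together. Among 42 pairs of next neighbours of the 193 within 50000 bases of each other, 13 had the same LPS call in both media, 10 lower and 3 higher, and 12 had opposite calls in at least 1 medium. Of the 193 genes 88 fell and 40 rose in both media, so pairs that are not neighbours also often share a call. Their share was not computed, and the counts are not a result about neighbours. The higher pairs were Zfp658 with Zfp719, Zfp52 with Zfp948, and Zfp768 with Zfp747. The pair Zfp809 and Zfp810, 33394 bases apart, fell by 0.28 and 3.06 in HEPES. Of the 193 genes, 8 were called in none of the 5 comparisons: Zfp1, Zfp189, Zfp511, Zfp668, Zfp687, Zfp748, Zfp771 and Zfp787. Of all genes tested 9.31% had no call, and 2.93% at the same mean count. With total counts all 8 were called lower with LPS in both media.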

How the data were processed

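The authors deposited one table of raw counts per gene and of FPKM for the 12 libraries, with their own comparison columns. Per the submitters' processing notes, CASAVA 1.8, HISAT2 2.0.5, featureCounts 1.5.0-p3 and mm10 were used; their parameters and roles were not stated. Libraries were made with the NEBNext Ultra kit, per the labels. The deposited FPKM values equalled counts per length scaled by a constant in each library and were not tested; log2 fold changes and adjusted p-values in the deposited table were read only to compare calls.

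Counts were tested with edgeR 4.0.16 (filterByExpr, TMM, robust quasi-likelihood fit of 4 group means, 8 residual degrees of freedom, Benjamini-Hochberg over 14506 genes), 5 contrasts, adjusted p under 0.05; SE is the log2 change over the square root of F. CPM are TMM-scaled. Alternatives were RLE and total-count scaling, no filter, DESeq2 1.42.0, the compared groups alone, and each library left out.

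Genes named are the 6 largest called changes each way per contrast, the 8 highest levels, the 3 on each side of the count limit, role lists, and up to 4 genes per pathway list and contrast by smallest p. Members and lists were chosen with earlier results of these data known. Patterns across contrasts, printed sequences, neighbours, motifs, and the split at the median count were chosen after values were seen, and some genes are named from them. No protein table was used here, so KRAB boxes were scored on translated GENCODE vM21 coding sequences; the pattern was widened after genes it first missed were inspected, and its minimum was set in an empty stretch of the scores, when LPS changes of single genes had been seen.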

Additional observations from a re-analysis of the deposited data

Results flagged for a closer look

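The LPS change differed between the media, by the edgeR interaction test, for 12 Zfp genes named for the size of that difference. The change in MOPS minus that in HEPES, on the log2 scale, was 0.87 for Zfp704, 0.87 for Zfp532, 0.79 for Zfp703, 0.78 for Zfp467, 0.77 for Zfp810 and 0.73 for Zfp362. It was -0.97 for Zfp9, -0.86 for Zfp954, -0.69 for Zfp330, -0.68 for Zfp28, -0.67 for Zfp143 and -0.63 for Zfp27. All of the first 6 but Zfp703 fell with LPS in both media, and fell further in HEPES. The call of Zfp810 was lost without MOPS with LPS replicate 8 (0.63), HEPES with LPS replicate 10 (0.51) or HEPES with LPS replicate 11 (0.66), and that of Zfp27 without MOPS replicate 1 (-0.53, edgeR adjusted p = 0.066).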

How the results depend on the processing

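No paired analysis was possible because the replicate numbers 1 to 12 in the labels are not shared between groups. Leaving out each library in turn gave 37 to 48 genes higher and 22 to 31 lower for the media at rest, 24 to 34 and 67 to 83 for the media under LPS, 37 to 40 and 106 to 114 for LPS in MOPS, 60 to 69 and 82 to 90 for LPS in HEPES, and 10 to 17 and 51 to 68 for the interaction. DESeq2 called 15 genes lower for the media at rest, where it called 2963 of all 14506 genes tested lower. Scaling by total counts alone gave 15 genes higher for LPS in MOPS, 20 higher and 147 lower for LPS in HEPES, and 23 higher for the interaction. The counts over all genes tested with that scaling are given above with each of these comparisons. With that scaling the log2 LPS change in MOPS turned to -0.47 for Zfp143, -0.15 for Zfp217, -0.23 for Zfp326, -0.41 for Zfp384, -0.22 for Zfp410, -0.42 for Zfp592, -0.40 for Zfp609, -0.19 for Zfp622, -0.46 for Zfp638, -0.46 for Zfp687 and -0.38 for Zfp830, and in HEPES to -0.43 for Zfp326, -0.56 for Zfp335, -0.10 for Zfp384, -0.084 for Zfp609, -0.058 for Zfp622, -0.45 for Zfp638 and -0.059 for Zfp830. Of 173 called changes of named genes 135 kept their call under every alternative and 38 lost it under at least 1. The 147 genes with little shared sequence, a set chosen after the data were seen, gave 89 lower and 27 higher for LPS in MOPS and 69 lower and 50 higher for LPS in HEPES. The authors' deposited table called 100 of the genes lower and 37 higher for LPS in MOPS, and all 137 had the same call here.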

Other observations

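Below the level, 2 KRAB-type genes of the role lists had few reads without LPS. Zfp57, which protects genomic imprints, had 0 to 6 raw counts in the 6 untreated libraries, 11, 18 and 6 in MOPS with LPS and 76, 90 and 82 in HEPES with LPS (edgeR interaction adjusted p = 3.3e-05). Zfp819 had 0 to 4 raw counts without LPS, 61, 73 and 50 in MOPS with LPS and 35, 19 and 28 in HEPES with LPS. Zfp831, listed with the blood cell factors, had 37, 71 and 36 raw counts in MOPS, 25, 31 and 34 in HEPES, 17, 14 and 13 in MOPS with LPS and 4, 2 and 4 in HEPES with LPS. It was called higher in MOPS in both states and lower with LPS in both media, the directions of the B cell marker calls.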
